A study of Mus musculus with 76 samples.

Results

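Keratins and epithelial junction genes were followed across whole CT26 and 4T1 tumors. The set was chosen by gene symbol and holds 10 of the 55536 genes in the count table, namely the keratins *Krt8*, *Krt18*, *Krt7*, *Krt19* and *Krt14*, the surface and junction genes *Epcam*, *Cdh1*, *Cldn4* and *Cldn7*, and the splicing regulator *Esrp1*. RNA from 38 whole tumors of 7 groups was sequenced in 76 libraries with a 3′ digital gene expression method, and the 2 technical libraries of a tumor were added, so that each tumor counts once.

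Female Balb/c mice, 6 to 12 weeks old in the study's methods, carried subcutaneous flank tumors grown from 1e6 CT26 cells or 5e5 cells of a 4T1 line. CT26 is a murine colorectal carcinoma line and 4T1 a murine mammary carcinoma line. On day 6 after inoculation, tumors were injected with 100 µg of alum, alone or together with 20 µg of CAT-ABP, a catalase with a peptide that binds alum, and on day 8 they were harvested. These days and that of the doxycycline diet are those of the labels, and the study's text gives each as 1 day later. All 38 tumors therefore received alum, and none was left uninjected. CT26 tumors were given alum (n = 5) or CAT-ABP + alum (n = 6), and so were tumors of unmodified 4T1 (n = 5 and n = 6). 4T1-CAT cells express human catalase and GFP, and 4T1-control cells express GFP, both from a lentiviral vector that is switched on by doxycycline (DOX). Both of these lines were selected with puromycin and sorted for GFP, and their mice were fed DOX from day 4, so vector, selection, sorting and DOX diet separate them from unmodified 4T1 together. 4T1-control tumors were given alum (n = 6), and 4T1-CAT tumors alum (n = 5) or CAT-ABP + alum (n = 5).

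Keratins form the intermediate filaments of epithelial cells, as obligate pairs of 1 type II and 1 type I chain. Keratins 8 and 18 are the usual pair of simple epithelia such as gut and mammary lumen, keratins 7 and 19 accompany them in many glands and ducts, and keratin 14 pairs with keratin 5 in basal cells of skin and mammary gland. E-cadherin, the product of *Cdh1*, holds neighbouring epithelial cells together at adherens junctions. Claudins seal tight junctions, EpCAM is an epithelial adhesion protein that binds claudin 7, and ESRP1 directs epithelial splicing of other transcripts. Repressors of the Snail and Zeb families bind E-box sequences in promoters of epithelial genes when cells turn mesenchymal.

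The windows of *Epcam*, the keratin pair *Krt8* and *Krt18*, *Krt7* and *Cldn4* are shown because they hold this E-box, the known target of those repressors, and were chosen for holding it. The windows are RefSeq sequence of build GRCm38.p6, from 250 bases before to 50 bases after the annotated start, 5′ to 3′ on the strand of the gene, with CAGGTG and its reverse complement CACCTG in capitals.
Epcam, chr17:87635729-87636028, plus strand: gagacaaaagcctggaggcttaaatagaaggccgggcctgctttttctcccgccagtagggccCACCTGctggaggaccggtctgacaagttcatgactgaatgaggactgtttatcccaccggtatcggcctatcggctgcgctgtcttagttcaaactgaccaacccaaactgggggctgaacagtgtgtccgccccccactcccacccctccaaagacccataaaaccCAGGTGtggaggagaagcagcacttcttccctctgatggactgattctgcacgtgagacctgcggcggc
Krt8, chr15:102004293-102004592, minus strand: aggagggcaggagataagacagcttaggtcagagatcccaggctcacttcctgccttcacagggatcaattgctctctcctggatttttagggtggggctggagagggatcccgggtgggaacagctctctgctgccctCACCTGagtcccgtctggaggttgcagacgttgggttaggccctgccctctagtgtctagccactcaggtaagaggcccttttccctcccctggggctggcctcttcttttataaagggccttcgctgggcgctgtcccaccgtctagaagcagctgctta
Krt18, chr15:102027966-102028265, plus strand: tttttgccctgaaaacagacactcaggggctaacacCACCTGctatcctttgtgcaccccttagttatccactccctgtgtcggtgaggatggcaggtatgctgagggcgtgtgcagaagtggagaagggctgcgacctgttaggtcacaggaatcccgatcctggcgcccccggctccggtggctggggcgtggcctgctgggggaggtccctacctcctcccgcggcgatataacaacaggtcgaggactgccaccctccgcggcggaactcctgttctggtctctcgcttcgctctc
Krt7, chr15:101412153-101412452, plus strand: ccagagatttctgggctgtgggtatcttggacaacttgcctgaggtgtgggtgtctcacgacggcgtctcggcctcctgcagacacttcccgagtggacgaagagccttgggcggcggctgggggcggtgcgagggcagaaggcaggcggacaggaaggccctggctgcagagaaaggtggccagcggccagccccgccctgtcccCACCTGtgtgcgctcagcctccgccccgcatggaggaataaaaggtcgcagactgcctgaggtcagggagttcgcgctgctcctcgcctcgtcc
Cldn4, chr5:134946885-134947184, minus strand: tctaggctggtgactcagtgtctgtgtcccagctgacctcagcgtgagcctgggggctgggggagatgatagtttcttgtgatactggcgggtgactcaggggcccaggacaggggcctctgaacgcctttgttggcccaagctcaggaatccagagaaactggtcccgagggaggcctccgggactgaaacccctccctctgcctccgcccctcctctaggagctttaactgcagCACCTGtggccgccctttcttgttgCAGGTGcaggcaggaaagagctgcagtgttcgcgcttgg

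The reference held 8 such windows for 7 of the genes, and *Krt19*, *Cdh1* and *Esrp1* were not among them. An E-box stood in at least 1 window of 6 of the 7 genes, while 22.6% of the 27025 genes with windows had one. Over all 32851 windows of 300 bases the share was 20.2%. *Cldn7* counts among the 6 only through a window whose annotated start lies 642 bases inside its gene. Its window at the outer boundary of the gene held no match. *Epcam* held matches that began 187 and 19 bases before the start, and *Cldn4* held one 14 bases before the start and another just after it. The *Krt14* window held no match, but its annotated start lies 1518 bases inside the gene, at a shorter transcript. The promoter of the coding *Krt14* transcript was therefore not searched. The annotated start of the *Krt7* window lies 1360 bases inside the outer boundary of its gene, and those of the others shown lie within 140 bases of theirs. The matches are a description of the letters in these windows, and binding was not measured.

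**Figure D1:**
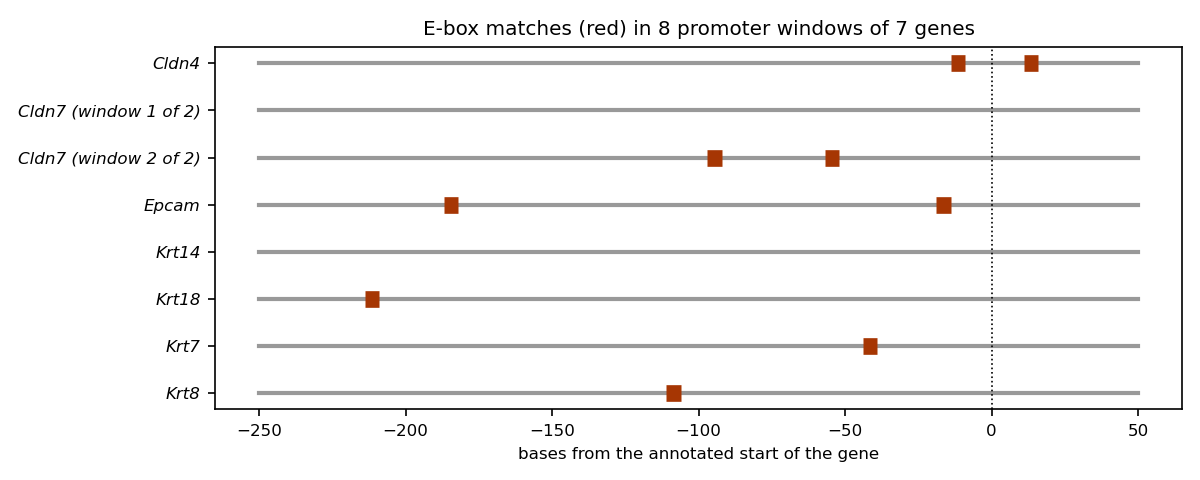
Positions of CAGGTG or CACCTG (red) in 8 promoter windows, in bases from the annotated start of each gene (x axis, 0 marked by the dotted line). Windows of 6 of the 7 genes hold a match, and 1 of the 2 *Cldn7* windows and the *Krt14* window, whose annotated start lies 1518 bases inside its gene, hold none.

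Tumors held between 493044 and 9077549 counts (median 4827387). Of the 76 libraries, 7 held fewer than 518752 counts, and 4 of these came from 4T1-control tumors. Levels are given as CPM, counts per 1e6 counts of the tumor, and error is the SD between tumors. The samples of a group are labelled as biological replicates. The labelled origin was only partly visible in lineage genes. Of 9 mammary genes 5 were tested between the alum groups, with 2 lower in CT26, 2 higher and 1 not called. *Gata3* and *Trps1*, factors of mammary epithelium, averaged 82.0 and 130.2 CPM in 4T1 alum tumors and 4.11 and 47.7 CPM in CT26 alum tumors, whereas *Esr1*, the estrogen receptor gene, and *Csn3*, a casein gene, averaged 7.89 and 2.05 CPM in 4T1 alum and 13.9 and 7.72 CPM in CT26 alum. Of 8 colon genes, *Cdx1*, *Phgr1* and *Car1* had no count in any of the groups, 4T1 lines included. *Vil1* had 0 counts in CT26 alum and 2 in 4T1 alum, and *Cdx2* had 1 and 0. *Lgals4* averaged 1.17 ± 0.480 CPM in CT26 alum and 0.738 ± 0.977 CPM in 4T1 alum, and *Cdh17* 0.985 ± 0.416 and 1.78 ± 0.894 CPM. *Gpa33*, which encodes an intestinal surface antigen, averaged 33.2 ± 5.27 CPM in 4T1 alum and 0.161 ± 0.238 CPM in CT26 alum, against the labelled origins, whereas the gut keratin gene *Krt20* averaged 1.44 ± 0.948 and 94.0 ± 22.5 CPM. The libraries carried index tags of separate sets, here called pools A and B. All 11 CT26 tumors, the 6 4T1 tumors given CAT-ABP + alum and 2 of the 5 4T1 alum tumors were in pool A, and the other 3 4T1 alum tumors and all 16 tumors of the engineered lines were in pool B. Mouse *Cat*, which does not report the human transgene, averaged between 35.8 and 41.1 CPM in the 4T1-line groups and 20.7 to 21.4 CPM in the CT26 groups.

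The 10 genes together took between 0.150% and 0.347% of the counts in the 27 tumors of the 4T1 lines and between 0.00389% and 0.00634% in the 11 CT26 tumors. In whole tumors, fewer cells of a type and less RNA per cell cannot be told apart. The levels of 7 of the 10 genes did not overlap between the 27 and the 11 tumors, and all 7 were lower in CT26. Of 14646 genes that passed a filter over all groups, 9 of the 10 among them, 6.75% were lower in CT26 without overlap and 3.75% higher. The other 3, *Krt19*, *Cldn4* and *Cldn7*, had the lowest total counts of the set over the 38 tumors.

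**Figure D2:**
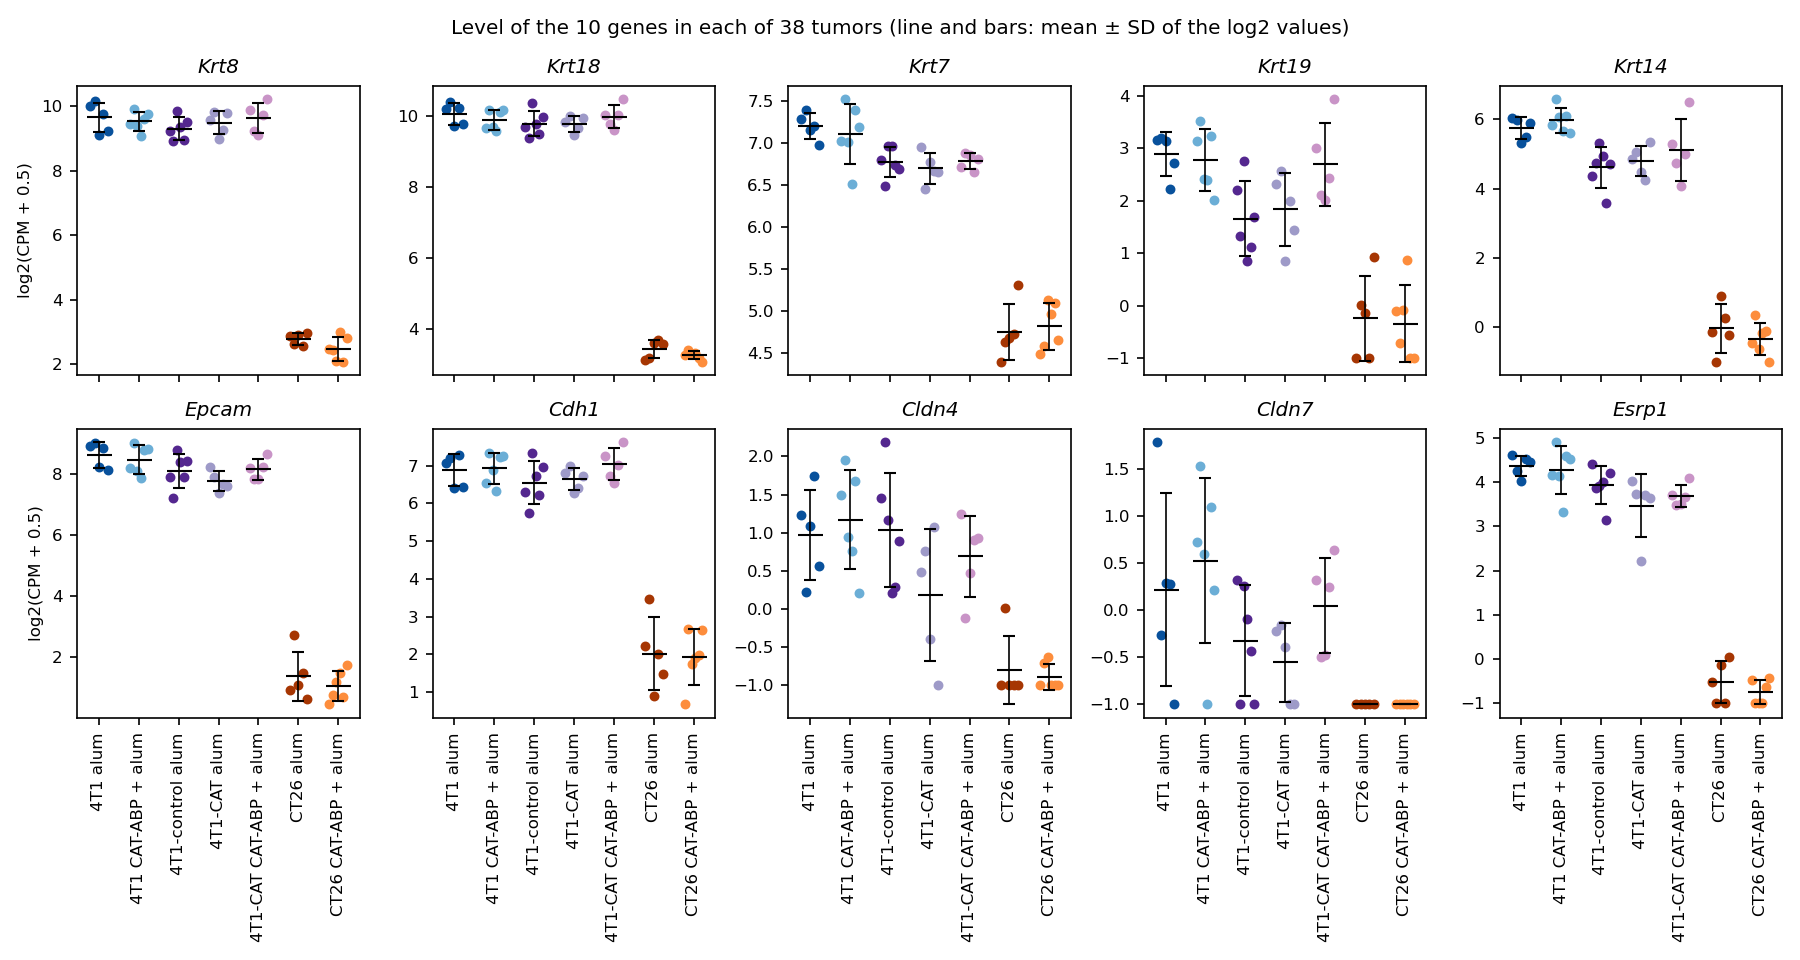
Level of each gene as log2(CPM + 0.5) (y axis) in the 7 groups (x axis), with a point per tumor and the mean ± SD of the log2 values as line and bars. The 5 groups of 4T1 lines lie close together and far above the 2 CT26 groups for every gene except the low-count *Krt19*, *Cldn4* and *Cldn7*, where single tumors meet.

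*Krt8* and *Krt18* encode the simple-epithelial keratin pair. In 4T1 alum tumors *Krt8* stood at 557, 601, 875, 1025 and 1141 CPM, and in CT26 alum tumors at 5.38, 5.58, 6.80, 6.98 and 7.24 CPM. The lowest 4T1 tumor thus lay far above the highest CT26 tumor. *Krt8* was lower in CT26 by a log2 fold change of -6.74 (SE 0.261, adjusted p = 4.08e-11, edgeR quasi-likelihood test with Benjamini-Hochberg adjustment over 12817 genes). *Krt18* stood at 841, 874, 1185, 1198 and 1345 CPM in 4T1 alum and at 8.20, 8.62, 11.5, 11.6 and 12.4 CPM in CT26 alum, a log2 fold change of -6.40 (SE 0.256, adjusted p = 5.02e-11, same test). In the tumors given CAT-ABP + alum the difference had the same size, with log2 fold changes of -6.93 (SE 0.216) for *Krt8* and -6.46 (SE 0.174) for *Krt18*. The processed pseudogene *Krt8-ps* drew 1 count in all 38 tumors.

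*Krt7*, a keratin of glandular epithelium, had the smallest fold change of the 8 genes tested between the alum groups. It stood at 125, 142, 147, 156 and 168 CPM in 4T1 alum and at 20.6, 24.3, 25.2, 25.9 and 39.0 CPM in CT26 alum. The groups did not overlap, and the log2 fold change was -2.15 (SE 0.218, adjusted p = 8.92e-07, edgeR quasi-likelihood test), so CT26 kept 18.3% of the 4T1 level. *Krt19*, a small type I keratin of ducts, ran from 4.15 to 8.64 CPM in 4T1 alum and from 0 to 1.41 CPM in CT26 alum, where 2 of the 5 tumors had no count. Its log2 fold change was -3.52 (SE 0.595, adjusted p = 0.00018, same test). *Krt14*, the basal keratin, stood at 39.6, 44.5, 59.2, 62.1 and 65.6 CPM in 4T1 alum and between 0 and 1.37 CPM in CT26 alum (log2 fold change -6.02, SE 0.326, adjusted p = 8.63e-10, same test). All *Krt14* counts of the 11 CT26 tumors together came to 31.

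*Epcam* had the largest fold change of the 8 genes tested between the alum groups. It stood at 281, 301, 461, 485 and 524 CPM in 4T1 alum and at 1.06, 1.40, 1.64, 2.34 and 6.08 CPM in CT26 alum. All CT26 tumors lay below 4T1, and 1 CT26 tumor stood apart from the other 4. The log2 fold change was -7.37 (SE 0.325, adjusted p = 1.12e-10, edgeR quasi-likelihood test). *Cdh1*, encoding E-cadherin, stood at 85.2, 85.9, 134, 147 and 154 CPM in 4T1 alum and ran from 1.37 to 10.6 CPM in CT26 alum (log2 fold change -4.80, SE 0.327, adjusted p = 1.2e-08, same test). *Esrp1* ran from 15.7 to 24.0 CPM in 4T1 alum and from 0 to 0.530 CPM in CT26 alum (log2 fold change -5.80, SE 0.375, adjusted p = 6e-09, same test). In the CAT-ABP + alum tumors *Esrp1* had 3 counts in CT26 against 651 in 4T1, a ratio of totals of 266 (95% counting interval 90.8 to 1295).

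The claudin genes were close to the detection limit in every group and failed the filter on low counts in the comparisons of the models. *Cldn7* had no count in any of the 11 CT26 tumors, which allows up to 0.0492 CPM over their 60980124 counts. It had 18 counts in 4T1 alum tumors and 41 in 4T1 tumors given CAT-ABP + alum, at least 6.51-fold and at least 16.8-fold above CT26, taking 3 counts over the CT26 group as the floor. *Cldn4* had 1 count in CT26 alum against 40 in 4T1 alum (ratio 43.4, interval 7.36 to 1757) and 2 against 65 with CAT-ABP + alum (ratio 39.9, interval 10.6 to 336). These intervals and floors cover counting error only. On log2(CPM + 0.5) every 4T1 alum tumor exceeded every CT26 alum tumor in *Cldn4* (p = 0.00794 in an exact two-sided permutation test, the smallest for 5 against 5). For *Cldn7* the alum groups overlapped at 0 (p = 0.0476, same test).

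All 8 genes that passed the filter were lower in CT26 in both comparisons of the models, where 21.2% of 12817 genes were called lower and 21.2% higher with alum, and 23.7% of 13016 lower and 21.7% higher with CAT-ABP + alum. The median log2 fold change of these 8 genes was -5.91 with alum and -6.69 with CAT-ABP + alum, against 0.02 and -0.02 over all genes tested. *Krt14*, *Krt19*, *Epcam* and *Esrp1* failed the filter where CT26 tumors were compared with each other. They entered here through their 4T1 level, so for them the filter itself favoured the direction lower in CT26. With 3 of the 5 4T1 alum tumors in another pool than CT26, the pool was also entered as a factor, and all 8 genes were still called, with *Krt8* at -7.06 and *Epcam* at -7.63. The comparison with CAT-ABP + alum lay wholly within pool A.

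**Figure D3:**
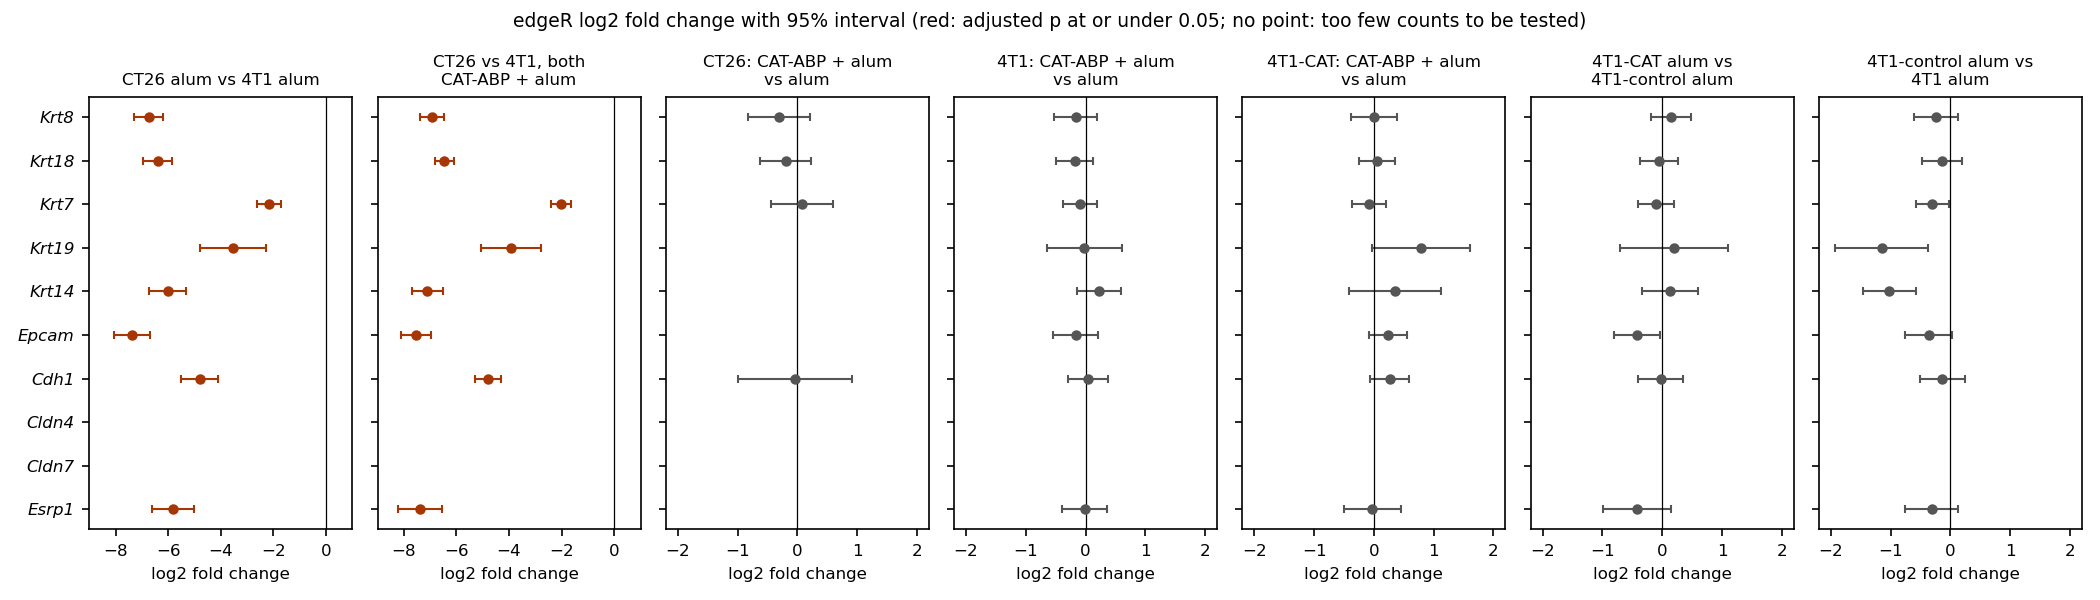
edgeR log2 fold change of each gene (x axis, with 95% interval) in 7 comparisons, with red for an adjusted p at or under 0.05 and no point where counts were too low. All 8 tested genes lie below 0 in the 2 comparisons of CT26 with 4T1, at -2.15 to -7.37 with alum, and none is red in the other 5.

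The size of the difference varied between genes. With alum, the mean CT26 level as a percent of the mean 4T1 level of the same gene was 0.610% for *Epcam*, 0.761% for *Krt8*, 0.961% for *Krt18*, 1.04% for *Krt14*, 1.12% for *Esrp1*, 3.64% for *Cdh1*, 6.52% for *Krt19* and 18.3% for *Krt7*. Among the 1687 genes at 100 CPM or more in 4T1 alum tumors, the median was 89.0% and 5 genes lay under 1%. Choosing genes by their 4T1 level itself favours low shares, and genes high in CT26 were not counted in the same way. Some of these shares turned on 1 CT26 tumor. Without replicate 2 the share was 0.392% for *Epcam* and 2.35% for *Cdh1*, without replicate 3 it was 0.671% for *Krt14*, and without replicate 5 it was 3.21% for *Krt19*, an alternative chosen after seeing the data. *Krt18* was at 1.01% without replicate 1 and 1.00% without replicate 2, so it is under 1% only narrowly. In CT26 the 2 technical libraries differed, with *Krt8* at 4.50 CPM in the first and 7.78 CPM in the second. Whether part of such low counts was carried over from 4T1 libraries was not tested. Besides *Epcam*, *Krt8* and *Krt18*, the genes under 1% were *Wfdc2* and *Lad1*, both named after their values were seen. *Lad1* encodes a keratin-associated protein of epithelia.

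Other epithelial gene groups are given beside the 10 genes. Of 12 desmosome genes 9 were tested with alum, and all 9 were lower in CT26, with a median log2 fold change of -5.28. They included *Perp* (-6.46, SE 0.290, adjusted p = 1.36e-10, edgeR quasi-likelihood test), a desmosomal membrane protein gene, and *Ppl* (-5.41, SE 0.307), encoding periplakin. Among CT26 tumors alone only 2 of the 12 desmosome genes passed the filter. Most of the 9 thus entered through their 4T1 level, which favoured the direction lower in CT26. *Dsp*, encoding desmoplakin, stood at 28.4 CPM in 4T1 alum and 0.561 CPM in CT26 alum. Of 20 tight junction and polarity genes 13 were tested, of which 9 were lower, 2 higher and 2 not called, with a median of -2.28. In CT26 tumors alone 8 of these 20 passed the filter. *Cldn3* (-5.86, SE 0.432) and *Lsr* (-4.06, SE 0.378), a gene of tricellular junctions, were among the lower ones. *Cldn12* was higher in CT26 (1.47, SE 0.145), and *Cldn6*, a claudin of embryonic epithelia, had 165 counts in CT26 alum and none in 4T1 alum, at least 50.7-fold higher against a floor of 3 counts over the group. *Tjp1*, encoding ZO-1, was not called (-0.18, SE 0.143). Of 8 adherens junction genes apart from *Cdh1* 4 were tested, with 1 lower (*Ctnnb1*, encoding β-catenin, -0.82, SE 0.168), 1 higher (*Ctnna1*, encoding α-catenin, 0.70, SE 0.151) and 2 not called, and their median was -0.34.

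Of 12 epithelial surface and hemidesmosome genes 10 were tested, with 8 lower, 1 higher and 1 not called (median -2.98). *Cd24a*, encoding a surface glycoprotein, was lower with a log2 fold change of -3.94 (SE 0.299), while *Itga6* was higher (0.40, SE 0.149). Of 13 epithelial regulators 6 were tested, with 5 lower and 1 higher (median -2.29). In CT26 tumors alone 5 of the 12 surface and hemidesmosome genes and 3 of the 13 regulators passed the filter. *Rab25*, an epithelial trafficking GTPase gene, was at -6.00 (SE 0.531). *Grhl2*, an activator of *Cdh1* and claudin genes, fell far less, from 42.2 CPM in 4T1 alum to 17.5 CPM in CT26 alum (log2 fold change -1.02, SE 0.171). *Klf4* went the other way, with 16.5 CPM in 4T1 alum and 145 CPM in CT26 alum (log2 fold change 3.36, SE 0.161, adjusted p = 3.11e-10, edgeR quasi-likelihood test).

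Keratin genes outside the set did not all follow it. Only 2 of the other 10 keratin genes passed the filter with alum, and both were higher in CT26. Of those that failed it, *Krt15*, *Krt16* and *Krt17* had 0, 3 and 6 counts in CT26 alum against 14, 83 and 53 in 4T1 alum, without overlap between the groups. Others that failed it did not separate. *Krt23* had 4 counts against 13, with tumors at 0 in both groups, *Krt5* 3 against 1 and *Krt6b* 1 against 0. *Krt6a* had 0 in both. The share of all genes without overlap between the alum groups was not counted. *Krt20* stood at 94.0 against 1.44 CPM (log2 fold change 6.43, SE 0.336, adjusted p = 6.38e-10, edgeR quasi-likelihood test), and *Krt80* was at 1.61 (SE 0.292). With CAT-ABP + alum *Krt20* was at 6.05 (SE 0.334), *Krt80* at 1.29 (SE 0.254), and *Krt16*, a keratin of stressed skin, passed the filter and was lower at -4.44 (SE 0.597). CT26 tumors thus held little of the simple-epithelial pair and more of *Krt20* than 4T1 tumors.

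The mesenchymal program was tested for all 13 of its genes with alum, of which 8 were higher in CT26, 4 lower and 1 not called (median 0.95). *Cdh2*, encoding N-cadherin, stood at 2.05 CPM in 4T1 alum and 30.5 CPM in CT26 alum (log2 fold change 4.23, SE 0.323), and *Prrx1* was higher by 2.15 (SE 0.125). The E-box repressor genes *Snai2* (2.35, SE 0.315), *Zeb1* (0.95, SE 0.189) and *Zeb2* (0.94, SE 0.177) were higher in CT26, and *Snai1* was lower (-1.07, SE 0.309). *Vim*, encoding vimentin, was not called (0.33, SE 0.193), while *Fn1* (-1.64, SE 0.174) and *Foxc2* (-4.21, SE 0.597) were lower. Stromal and immune cells express many of these genes too, so their levels in whole tumors do not belong to tumor cells alone. Markers of host cells also differed between the models. All 7 tested of 8 T cell genes were higher in CT26 with alum, and their summed level ran from 70.6 to 214 CPM in CT26 alum against 29.2 to 37.2 CPM in 4T1 alum. Of 9 fibroblast genes 5 were lower, 1 higher and 3 not called, with sums of 1006 to 2845 CPM against 2596 to 3365 CPM. Of the other host lists, macrophage genes had 3 higher and 6 not called of 9, neutrophil genes 1 higher, 1 lower and 4 not called of 6, endothelial genes 2 lower and 5 not called of 7, adipocyte genes 1 higher and 2 not called of 3, skeletal muscle genes 7 not called of 7, and epidermis genes 1 higher and 1 not called of 2. Their part in the difference of the epithelial genes was not tested.

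**Figure D4:**
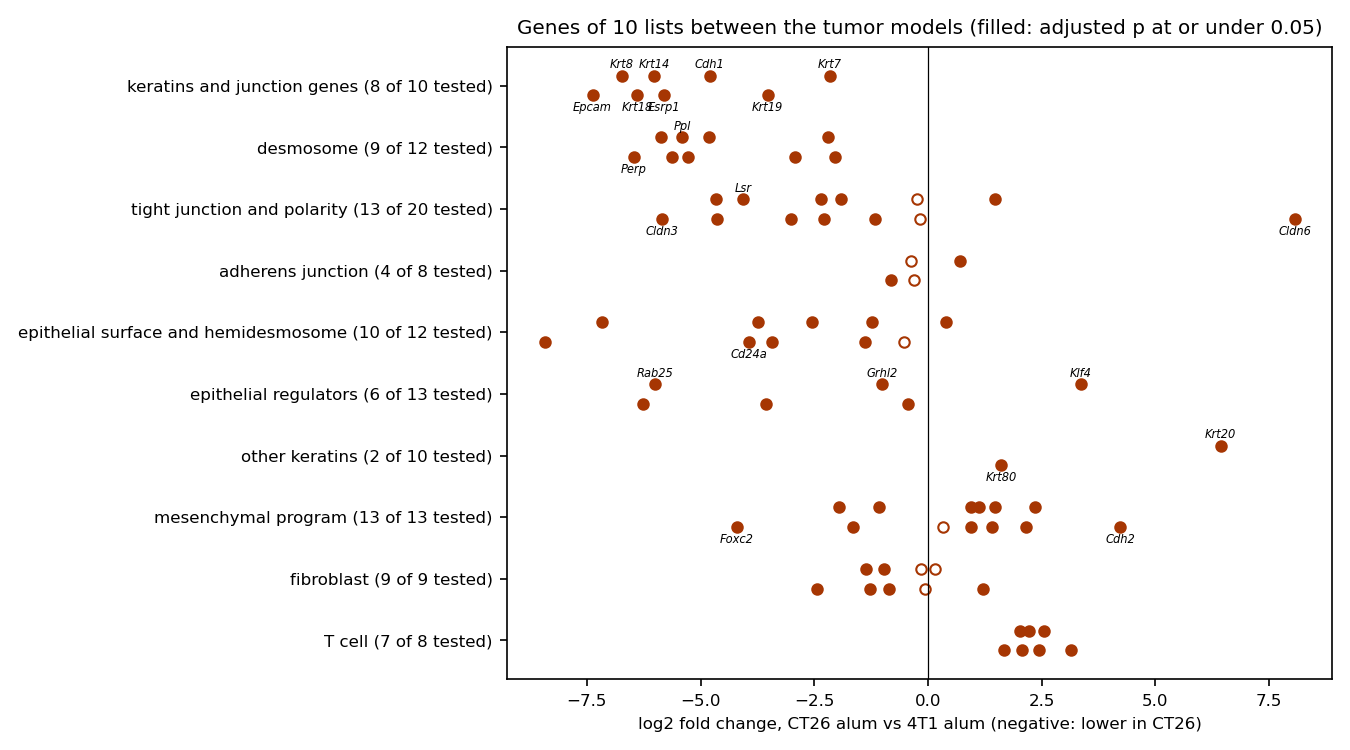
edgeR log2 fold change of CT26 alum against 4T1 alum (x axis, negative for lower in CT26) for each tested gene of 10 lists (rows), filled where the adjusted p was at or under 0.05, with names at some of the genes given in the text. Desmosome genes lie on the same side as the keratins and junction genes, whereas *Krt20*, *Klf4*, *Cldn6* and *Cdh2* lie far on the other side.

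The study asked what catalase outside or inside the tumor cells does to the tumors. None of the tested genes of the set was called by edgeR in the comparisons of catalase. In CT26, CAT-ABP + alum against alum left 4 of the 10 genes to be tested and 0 called, with 0% of 12830 genes called. Over all genes 309 had an unadjusted p under 0.05 in edgeR, and DESeq2 called 1. *Krt8* ran from 3.71 to 7.45 CPM (median 4.94) with CAT-ABP + alum and from 5.38 to 7.24 CPM with alum, and its log2 fold change was -0.30 (95% interval -0.82 to 0.22). *Krt7* was at 0.08 (-0.44 to 0.59), *Krt18* at -0.20 (-0.63 to 0.23) and *Cdh1* at -0.04 (-0.999 to 0.92). Of the 4 genes 0 had an unadjusted p under 0.05, and DESeq2 called 0 as well.

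In unmodified 4T1, 8 genes of the set were tested and 0 called by edgeR, with 0% of 13092 genes called. None of the 8 had an unadjusted p under 0.05 or was called by DESeq2, and over all genes 368 had such a p and DESeq2 called 0. *Epcam* ran from 233 to 522 CPM (median 372) with CAT-ABP + alum and from 281 to 524 CPM with alum, and the groups overlapped almost wholly (log2 fold change -0.17, 95% interval -0.54 to 0.21). The intervals were narrowest for *Krt7* (-0.38 to 0.20) and *Krt18* (-0.49 to 0.12) and widest for *Krt19* (-0.65 to 0.60). The CAT-ABP + alum tumors were all in pool A and 3 of the 5 alum tumors in pool B. With pool as a factor the median over the 8 genes moved from -0.06 to -0.20 and *Krt8* from -0.17 to -0.49 (SE 0.192, unadjusted p = 0.0202, adjusted p = 0.987, edgeR quasi-likelihood test), the 1 gene of the set with an unadjusted p under 0.05 there. In 4T1-CAT, 8 genes of the set were tested and 0 called by edgeR, with 0% of 13093 genes called. Among these 8, 0 had an unadjusted p under 0.05 and DESeq2 called 0, whereas over all genes 1983 had such a p and DESeq2 called 249. *Krt8* stood at 512, 613, 765, 883 and 914 CPM with alum and at 553, 601, 850.1, 945 and 1199 CPM with CAT-ABP + alum (log2 fold change 0.01, 95% interval -0.38 to 0.39). *Cdh1* was at 0.26 (-0.06 to 0.59) and *Krt19* at 0.79 (-0.03 to 1.60). Host markers had the opposite sign in this comparison, with a positive log2 fold change in 0 of 9 fibroblast genes (median -0.42), 0 of 6 T cell genes (median -0.63), 1 of 9 macrophage genes (median -0.25) and 1 of 7 endothelial genes (median -0.18), none of them called. Their part in the values of the epithelial genes was not tested. The effect of CAT-ABP was also compared between CT26 and 4T1 as an interaction, which called 0 of the 8 tested genes and 0% of 14160 genes. Among these 8, 0 had an unadjusted p under 0.05 and DESeq2 called 0, and over all genes 503 had such a p and DESeq2 called 0. Its intervals were wide for the genes near 0 in CT26, such as *Krt14* (-1.06, -2.27 to 0.15) and *Esrp1* (-1.53, -3.16 to 0.11).

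Intracellular catalase was compared in 4T1-CAT alum against 4T1-control alum. Of the 8 tested genes 0 were called, with 0% of 12534 genes called and 0 of the 8 by DESeq2, and 1 had an unadjusted p under 0.05. Over all genes 627 had such a p and DESeq2 called 6. The gene of the set was *Epcam*, which stood at 167, 195, 204, 240.2 and 303 CPM in 4T1-CAT alum and ran from 150.1 to 446 CPM (median 287) in 4T1-control alum. The groups overlapped, and the log2 fold change was -0.42 (95% interval -0.81 to -0.03, adjusted p = 0.951, edgeR quasi-likelihood test). *Krt8* was at 0.15 (-0.19 to 0.48), *Cdh1* at -0.02 (-0.40 to 0.35) and *Esrp1* at -0.43 (-0.99 to 0.14). Here the host markers were positive, in 9 of 9 fibroblast genes (median 0.40), 6 of 6 T cell genes (median 0.94), 8 of 8 macrophage genes (median 0.24) and 7 of 7 endothelial genes (median 0.36), none of them called, and their part was not tested. The 4T1-CAT alum tumors are shared with the comparison of CAT-ABP in 4T1-CAT, and the 4T1-control alum tumors with the next comparison.

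The engineered control line was compared with unmodified 4T1, both given alum. Here 0 of the 8 tested genes were called by edgeR and 0.0161% of 12431 genes, whereas 3 of the 8 had an unadjusted p under 0.05 and DESeq2 called 1, *Krt14*. The number of all genes with such a p is not given for this comparison, so the 3 of 8 do not set the genes apart. *Krt14* ran from 11.5 to 38.9 CPM (median 25.98) in 4T1-control alum, just below the lowest unmodified tumor at 39.6 CPM. Its log2 fold change was -1.02 (SE 0.213, 95% interval -1.46 to -0.58, adjusted p = 0.156, edgeR quasi-likelihood test), and DESeq2 gave an adjusted p of 0.0237. *Krt19* ran from 1.31 to 6.26 CPM (median 2.37) against 4.15 to 8.64 CPM and was at -1.15 (95% interval -1.93 to -0.37, adjusted p = 0.255, same test). *Krt7* ran from 89.2 to 124 CPM (median 109) against 125 to 168 CPM, without overlap, and was at -0.30 (-0.58 to -0.03, adjusted p = 0.404, same test). The share of all genes without overlap between these groups was not counted. *Krt8* and *Krt18* were at -0.25 (-0.61 to 0.12) and -0.15 (-0.48 to 0.19).

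All 6 4T1-control tumors were in pool B and 2 of the 5 4T1 alum tumors in pool A. These 2 held more *Krt8* than the 3 in pool B, at 1025 and 1141 CPM against 557 to 875 CPM. With pool as a factor *Krt14* was at -0.90 (adjusted p = 0.48), *Krt19* at -1.01 (adjusted p = 0.591), *Krt7* at -0.25 (adjusted p = 0.772) and *Krt8* at 0.02 in the same edgeR test. In pool B alone, the 3 unmodified tumors held *Krt14* at 39.6 to 59.2 CPM and *Krt7* at 125 to 147 CPM, above every 4T1-control tumor. How many of all genes separate so few tumors in this way was not counted, so this does not set *Krt14* and *Krt7* apart. Without the low-depth libraries *Krt14* was at -1.06 (adjusted p = 0.0609, same test). The vector, selection, sorting and DOX diet cannot be told apart in this comparison.

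*Krt14* was spread widely inside a group of the engineered lines. In 4T1-CAT tumors given CAT-ABP + alum it stood at 16.2, 26.2, 31.5, 38.4 and 90.1 CPM. The highest tumor, replicate 5, also held 26.1 CPM of *Krt5*, the partner of *Krt14* in basal epidermis, where the other 26 tumors of the 4T1 lines ran from 0 to 1.27 CPM. In this tumor the summed level of the 13 epidermis genes was 307 CPM, against 11.9 to 29.0 CPM in the other 4T1-line tumors and 40.0 to 65.4 CPM in CT26, where most of it was *Lgals7* and *Krt10*. Of the 13 genes 11 were higher in it than in every other tumor of the series, among them *Krtdap*, a gene of differentiating keratinocytes, at 153 CPM, and *Krt1*, the suprabasal keratin gene, at 15.2 CPM. The other 4 tumors of the group had no *Krt1* count. *Krt19*, *Krt8*, *Krt18* and *Cdh1* were also higher in this tumor than in any other of the series, at 14.8, 1199, 1432 and 197 CPM. Without it the log2 fold change of *Krt14* for CAT-ABP in 4T1-CAT turned from 0.35 to -0.08 and that of *Krt19* went from 0.79 to 0.39, with no call in either case.

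Among the 5 groups of 4T1 lines, the highest group mean exceeded the lowest 1.22-fold for *Krt18*, 1.29-fold for *Krt8*, 1.36-fold for *Cdh1*, 1.41-fold for *Krt7*, 1.77-fold for *Esrp1* and 1.85-fold for *Epcam*. The fold was 2.37 for *Krt19*, 2.45 for *Cldn4*, 2.52 for *Krt14* and 5.60 for *Cldn7*, whose counts were few. For *Krt14* both means of unmodified 4T1, at 54.2 and 64.2 CPM, lay above the 3 means of the engineered lines, at 25.5 to 40.5 CPM. Single tumors span at least the range of their group means by construction, so their folds are given as a description. Over the 27 tumors the highest stood 2.12-fold above the lowest for *Krt18*, 2.48-fold for *Krt8*, 3.49-fold for *Epcam*, 3.74-fold for *Cdh1*, 7.09-fold for *Esrp1*, 8.29-fold for *Krt14* and 11.4-fold for *Krt19*. Replicate 5 of 4T1-CAT with CAT-ABP + alum was the highest tumor for *Krt18*, *Krt8*, *Cdh1* and *Krt19*. Its group had the highest mean of *Cdh1*, at 136 CPM, which was 120 CPM without it. The 10 genes together ran from 1497 to 3471 CPM.

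The 8 genes tested between the models rose together across tumors to differing degrees. Across the 27 tumors of the 4T1 lines, taken as deviations from their group means of log2 CPM, the 28 pairs among the 8 tested genes all had a positive Pearson r, with a median of 0.581 and a range of 0.197 to 0.956. The lowest values were those of *Krt7* with *Krt14* (0.197) and with *Krt19* (0.222). The pairs share libraries and total depth, and the share of positive pairs over all genes was not counted, so this is a description. *Cldn4*, with few counts, was at -0.02 with *Krt7* and between 0.06 and 0.15 with *Cdh1*, *Epcam*, *Krt18*, *Krt8* and *Krt14*. 3 pairs known to work together were tested, with 100000 permutations within groups. For each of the 3, a pair not chosen this way that shares 1 of its genes had a higher r. These were *Krt18* with *Cdh1* (0.956), *Cldn7* with *Krt7* (0.605) and *Krt14* with *Krt8* (0.736). The tests therefore do not set partners apart from other pairs of the set. *Krt8* and *Krt18* had r = 0.953 and rho = 0.932 (permutation p = 1e-05 for both, the smallest these permutations can give, adjusted over the 3 pairs 3e-05). Without the 2 tumors farthest from the median of *Krt8*, r was 0.946, and it was 0.915 in the 8 tumors of pool A and 0.968 in the 19 of pool B. *Epcam* and *Cldn7* had r = 0.575 (permutation p = 0.00416, adjusted 0.00624) and rho = 0.564 (p = 0.00645, adjusted 0.00967), and r was 0.446 without the 2 tumors farthest from the median, 0.536 in pool A and 0.565 in pool B. *Cldn7* rested on 0 to 14 counts a tumor.

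*Krt14* and *Krt5* had r = 0.645 (permutation p = 0.0155, adjusted 0.0155), but rho was 0.328 (p = 0.133). Without replicate 5 of 4T1-CAT with CAT-ABP + alum, r was 0.331 (permutation p = 0.147), and without the 2 tumors farthest from the median of *Krt14* it was 0.340 (permutation p = 0.131), so the relation over all 27 tumors rests on those samples. Within the 8 tumors of pool A, which do not include replicate 5, r was 0.808 (permutation p = 0.0163) and rho 0.610 (permutation p = 0.067). Within pool B r was 0.627 (permutation p = 0.0648). In the other 26 tumors *Krt5* was close to 0 counts while *Krt14* ran from 11.5 to 95.4 CPM.

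**Figure D5:**
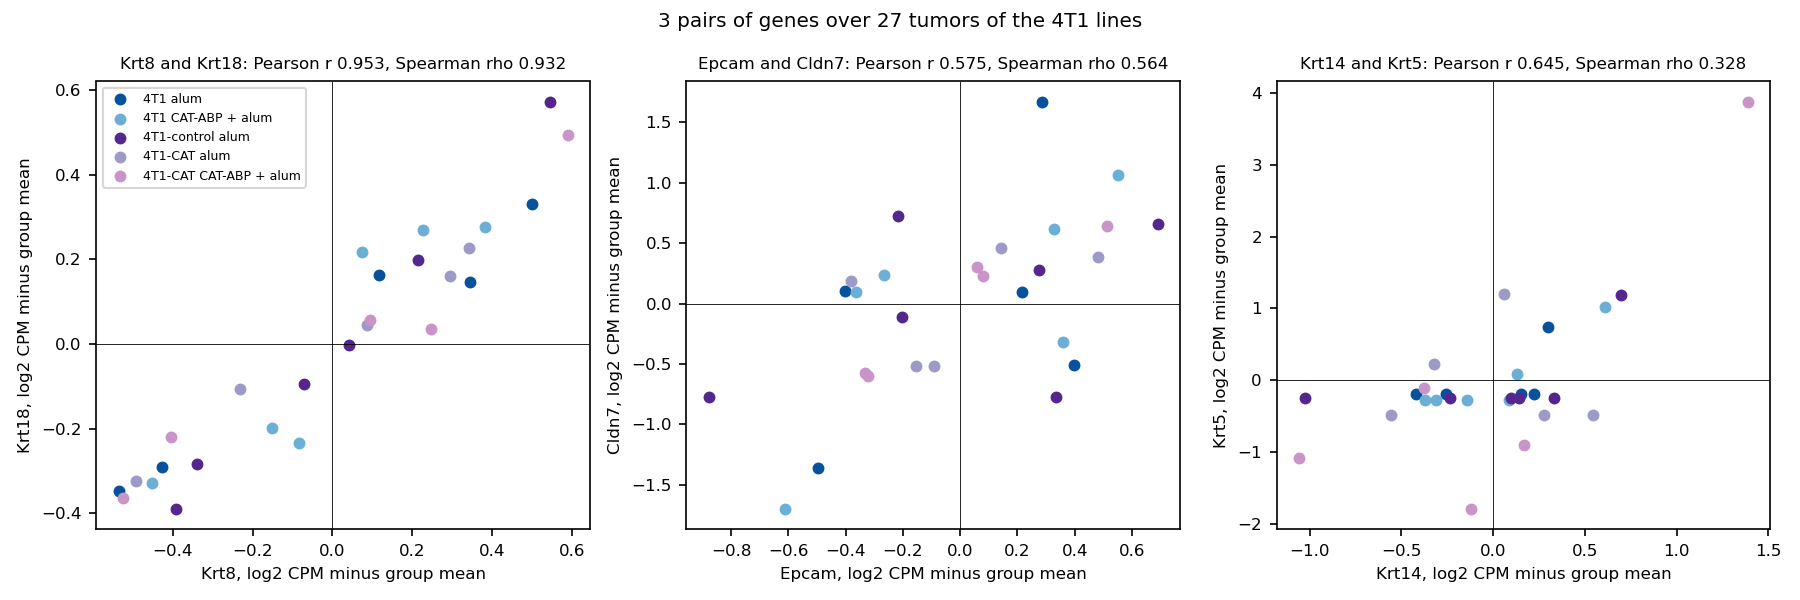
Deviation of log2 CPM from the group mean for *Krt8* and *Krt18*, *Epcam* and *Cldn7*, and *Krt14* and *Krt5* in the 27 tumors of the 4T1 lines, coloured by group. *Krt8* and *Krt18* follow a line (r = 0.953), while 1 tumor at the upper right carries much of the relation between *Krt14* and *Krt5* (r = 0.331 without it).

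Genes outside the set were ranked by how closely they followed the mean of the 9 genes that passed the filter over all 7 groups. Over all 38 tumors the genes with the highest Pearson r included *Dsp* (0.986), *Lad1* (0.985), *Fgfbp1*, *Ripk4*, *Serinc2*, *Tmem54*, *Kcnk1*, *Fam167a* and *Perp* (0.982), of 14513 genes, a ranking that includes the difference between the models. Among deviations from group means in the 27 tumors of the 4T1 lines, the genes with the highest r included *Plekha2* (0.913), *Wsb2* (0.912), *Tcim*, *Ankib1*, *Adam8*, *Cep43*, *Cd44*, *Cdk6* and *Gm49172* (0.892). All 13 mesenchymal program genes had a positive r there, as did all 9 desmosome genes (median 0.683) and all 7 endothelial genes (median 0.561), while the T cell genes had a median of 0.174 with 4 of 7 positive. A positive r was common in other lists too, in 14 of 14 tight junction and polarity, 7 of 9 fibroblast, 7 of 9 macrophage, 7 of 8 skeletal muscle and 4 of 6 mammary genes. Its share over all ranked genes was not counted, so these counts do not set a list apart. All tumors of a ranking share libraries and depth.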

How the data were processed

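RNA from 38 whole mouse tumors was measured with HT3DGE, a 3′ digital gene expression method, on a NextSeq system. The authors ran the Smart-seq2 pipeline of Terra and deposited estimated counts per gene and library, without normalization (39.7% of non-zero values were not whole). Whether molecular identifiers were collapsed is not given in the sources used here. The study excluded some low-depth technical replicates without naming them, so all 76 libraries were kept. The build is not given in the sources used here, and all 55536 versioned gene IDs matched GENCODE M21 on GRCm38.

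Counts of both libraries of each tumor were added and then rounded. CPM is counts per 1e6 of a tumor's total. Genes were filtered with filterByExpr (minimum count 10), normalized by TMM and compared with edgeR's robust quasi-likelihood test, with the groups of each comparison alone in the model and Benjamini-Hochberg adjustment at 0.05 over all genes tested. A prior count of 2 was used for log2 CPM in correlations. Software was R 4.3.3, edgeR 4.0.16, DESeq2 1.42.0 and scipy 1.17.1, and the fits were tested on simulated data. The edgeR and DESeq2 p-values weigh a difference between groups against the spread between tumors within them. Those of the gene pairs concern the relation of the genes within groups.

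The 10 genes, the gene lists and the tests were chosen with earlier results of these data known. Named were all 10 genes in every comparison, from each other list up to 2 genes per direction with the smallest adjusted p among those called, the 10 genes most like the set in each of 2 rankings, and *Cat*. Some genes that this rule names are not reported here. Other genes were named after their values were seen, among them *Dsp*, *Tjp1*, *Grhl2*, *Snai2*, *Zeb1*, *Zeb2*, *Snai1*, *Vim*, *Wfdc2* and the epidermis genes. Alternatives were DESeq2, RLE size factors, 2 other filters, 1 model over 7 groups, a replicate block, each technical replicate alone, low-depth libraries left out, the pool as a factor and each tumor left out. Replicate numbers did not pair tumors.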

Additional observations from a re-analysis of the deposited data

Results flagged for a closer look

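4 of 68 sets of values, 1 for each gene and group, held a tumor farther from the rest of its group than expected of its range. Chance gives about 1 in 20. *Epcam* in CT26 alum was 6.08 CPM in replicate 2, where the other 4 tumors ran from 1.06 to 2.34 CPM, and *Cldn4* was 0.507 CPM in the same tumor, which is 1 count where the other 4 had none. *Krt19* in CT26 tumors given CAT-ABP + alum was 1.34 CPM in replicate 4, from 7 counts. *Cldn7* in 4T1 alum was 2.95 CPM in replicate 1, from 8 counts.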

How the results depend on the processing

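Every gene of the set that could be tested was called lower in CT26 under every alternative run and without any single tumor, in both treatments. It was 10 genes without a filter, 7 with a mean count of at least 20 or technical replicate 2 alone, where *Krt19* was not tested, and 8 otherwise. With technical replicate 2 alone, calls over all genes fell from 5442 to 2862 with alum and from 5912 to 3569 with CAT-ABP + alum, and without single tumors they ran from 4839 to 5707 and from 5393 to 6396. The other comparisons were sensitive where calls were few. For CAT-ABP in CT26, DESeq2 called 1 gene and no filter 2, and single tumors gave 0 to 1. For CAT-ABP in 4T1-CAT, DESeq2 called 249 and no filter 50, and single tumors gave 0 to 2. For intracellular catalase, DESeq2 called 6 and no filter 99. None of these calls was one of the 10 genes. For 4T1-control against 4T1, DESeq2 called 16 genes, RLE factors 1, no filter 58, a model over 7 groups 8, low-depth libraries left out 27, and either technical replicate alone or pool as a factor 0, where the reported count was 2, and single tumors gave 0 to 15. Of the 10 genes DESeq2 and no filter each called 1, *Krt14*, and so did leaving out 4T1-control replicate 3 (0 to 1 over single tumors).

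Replicate numbers did not pair the tumors, since same-numbered tumors correlated at -0.342 to 0.386 and no comparison had every pair above 0.1. A replicate block gave 1 call for CAT-ABP in CT26, 2 in 4T1-CAT and 0 for 4T1-control against 4T1, with none of the 10 genes among them, and kept 8 of 8 between the models. With it *Cdh1* turned to -0.00267 for CAT-ABP in 4T1, to 0.0690 for intracellular catalase and to -0.0417 in the interaction, and *Krt8* and *Esrp1* to -0.00750 and 0.0126 for CAT-ABP in 4T1-CAT.

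Further log2 fold changes that changed sign were close to 0 and called in no setting. With technical replicate 1 alone these were *Krt7* at -0.0357 and *Cdh1* at 0.0758 for CAT-ABP in CT26, *Krt19* at 0.0671 in 4T1, *Krt8* at -0.0669 and *Esrp1* at 0.101 in 4T1-CAT, and *Krt14* at -0.00557 and *Cdh1* at 0.0708 for intracellular catalase. With technical replicate 2 alone they were *Cdh1* at -0.0283 and *Esrp1* at 0.228 in 4T1, *Krt7* at 0.0284 in 4T1-CAT and *Krt18* at 0.154 in the interaction. With pool as a factor they were *Cdh1* at -0.126 in 4T1, *Krt8* at 0.0177 for the line, and *Krt8* at 0.161, *Krt18* at 0.137 and *Epcam* at 0.127 in the interaction. DESeq2 gave *Krt8* at -0.00978 in 4T1-CAT and *Cdh1* at -0.0742 in the interaction, RLE factors -0.00977 and -0.00467. The model over 7 groups gave *Cdh1* at 0.0804 in CT26, and no filter *Krt18* at 0.00212 in the interaction.

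Leaving out single tumors also moved uncalled log2 fold changes across 0. For CAT-ABP in CT26 the values ran from -0.0476 to 0.35 for *Krt7* and -0.32 to 0.39 for *Cdh1*. For CAT-ABP in 4T1 the values ran from -0.23 to 0.13 for *Krt19*, -0.0387 to 0.10 for *Cdh1* and -0.12 to 0.0585 for *Esrp1*. For CAT-ABP in 4T1-CAT the values ran from -0.10 to 0.10 for *Krt8*, -0.0842 to 0.53 for *Krt14*, -0.0305 to 0.11 for *Krt18* and -0.21 to 0.0846 for *Esrp1*. For intracellular catalase the values ran from -0.0324 to 0.26 for *Krt14*, -0.11 to 0.0323 for *Krt18*, -0.0240 to 0.51 for *Krt19* and -0.12 to 0.11 for *Cdh1*. For the interaction the values ran from -0.15 to 0.10 for *Krt18*, -1.24 to 0.86 for *Krt19*, -0.30 to 0.21 for *Epcam* and -0.31 to 0.39 for *Cdh1*.

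The relation of *Krt8* and *Krt18* ran from 0.946 to 0.961 without single tumors, that of *Epcam* and *Cldn7* from 0.503 to 0.641 (0.536 in pool A, p = 0.134 by permutation), and that of *Krt14* and *Krt5* from 0.331 to 0.692. The last missed 0.05 by permutation in pool B (0.627), without the 2 farthest tumors (0.340) and with technical replicate 1 (0.486) or 2 (0.626) alone. Pool could not be entered where groups lie in 1 pool or differ in it wholly, and this was not run there. Depth limits the claudins and *Krt19*, and in CT26 *Krt14* and *Esrp1*.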

Other observations

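The 2 technical libraries of a tumor did not give the genes equal weight. In the 27 tumors of the 4T1 lines, *Krt8* was higher in the first library in 22 and in the second in 5, with 819 and 712 CPM over all counts. In the 11 CT26 tumors the second library was higher in 8 and the first in 3, with 4.50 CPM from 179 counts and 7.78 CPM from 165 counts. For *Krt14* in the 4T1 lines the levels were 51.9 and 33.2 CPM, with the first library higher in 24 of 27 tumors. In CT26 *Krt19* had 23 counts in the first libraries and 2 in the second, and all 3 *Cldn4* counts were in the first. *Krt7* in CT26 was 26.6 and 30.7 CPM. These differences were not tested.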
